A study of Homo sapiens with 24 samples.

Results

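The collagen genes were taken as all protein-coding genes whose symbol is COL, a number, A and a number, which gave 44 of the 62703 gene identifiers counted in each library. The 24 libraries were poly(A) RNA-seq of T/C-28a2, an immortalised line of human costal (rib) chondrocytes, in 6 groups of 4 described as biological replicates. The labelled groups were untransfected cells in isotonic medium (WT Ctr) and in 100 mM sorbitol for 7 days (WT Sor), cells given a plasmid carrying wild-type WNK2 for 48 h and then kept in the same media (WNK2 trans Ctr and WNK2 trans Sor), and a WNK2-deleted line in both media (WNK2- Ctr and WNK2- Sor). WNK2 is a kinase of the WNK family, known for sensing chloride and osmotic change, and sorbitol raises the osmolarity of the medium. All groups were of the same parent line and had the same low-serum medium. The transfected cells had no empty-plasmid control, and the WNK2-deleted cells, from which CRISPR removed exon 2, were a single clone, so that a property of the clone cannot be told apart from the deletion.

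The counts of WNK2 itself put the labels of 3 groups in doubt. WNK2 stood at 5.95 to 14.1 RPKM (reads per kilobase of exon, scaled to library size) in the libraries labelled WT Ctr and at 0.756 to 1.22 in those labelled WNK2 trans Ctr, a log2 difference of −3.32 (SE 0.21, adjusted p = 3.88e-11) by edgeR's quasi-likelihood test. The libraries labelled WNK2 trans Sor stood at 9.26 to 15.6 RPKM and those labelled WT Sor at 1.17 to 1.32. WNK2- Ctr held 1.6 to 1.72 RPKM and WNK2- Sor held 1.28 to 1.73, values that check nothing about a deletion of exon 2 because each count spans the gene. WT Sor, labelled as cells with an intact gene, lay below every WNK2- Ctr library and overlapped WNK2- Sor, and its log2 difference from WT Ctr was −3.06 (SE 0.21, adjusted p = 1.52e-10). Which labels are at fault was not settled. Group names below are the labels only. Many results that rest on WT Ctr or WNK2 trans Ctr, but not all, are given with the other of these groups in its place too. The comparisons that use neither come first, although those against WT Sor carry the doubt over its label. WNK2- Sor against WNK2- Ctr was the comparison that uses none of these 3 groups. Library totals ran from 14153002 to 25664619 reads, with the WNK2- libraries at 18578564 or more.

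A collagen is a trimer of alpha chains, each coded by its own gene and wound into a triple helix through Gly-X-Y repeats. Fibrillar collagens form the fibrils of cartilage, bone and skin: in cartilage the fibril is built of types II, IX and XI, while types I, III and V mark fibrous tissue and chondrocytes that lost their phenotype in culture. Network collagens (types IV, VIII and X) form sheets, FACITs sit on the surface of fibrils, type VI forms beaded filaments in the pericellular matrix of chondrocytes, type VII anchors basement membranes, types XIII, XVII, XXIII and XXV span the cell membrane, and types XV and XVIII are the proteoglycan-like multiplexins.

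The 44 genes divided into 11 fibrillar, 9 network, 10 FACIT, 5 beaded filament, 1 anchoring fibril, 4 transmembrane, 2 multiplexin and 2 other members. At least 1 group mean reached 1 RPKM for 25 of them, and every group mean did for 19. The type VI chain COL6A1 had the highest mean over the 24 libraries at 363 RPKM, followed by the type I chain COL1A1 at 261, COL6A2 at 251 and the type V chain COL5A2 at 125. Next came COL7A1 at 103 RPKM, COL6A3 at 83.7, COL5A1 at 71.6 and COL3A1 at 63.1. The cartilage chains lay far below these: the highest group mean was 1.46 RPKM for COL2A1, the chain of type II collagen, 3.98 for COL9A3, 2.45 for COL9A2 and 0.834 for COL11A2.

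Members tested for differences numbered 36. The other 8 (COL1A2, COL4A3, COL6A5, COL9A1, COL10A1, COL11A1, COL19A1 and COL22A1) did not pass the filter on low counts, with 16 reads or fewer in each library. COL1A2, the partner of COL1A1 in type I collagen, held 0 to 16 reads, COL11A1 of type XI at most 6 and COL9A1 of type IX at most 3. COL10A1, the network collagen of hypertrophic cartilage, was listed at 0 in all 24 libraries. A 0 in these tables does not show absence, since TUBA1A, TUBA1B and TMSB10, which nearly every cell uses, were listed at 0 too (genes chosen after their values were seen), as were 3132 of 19856 protein-coding genes. Where reads were assigned at all, a count of 0 in the shallowest library allows a level of up to 0.212 CPM (counts scaled to library size), counting error only.

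**Figure D1:**
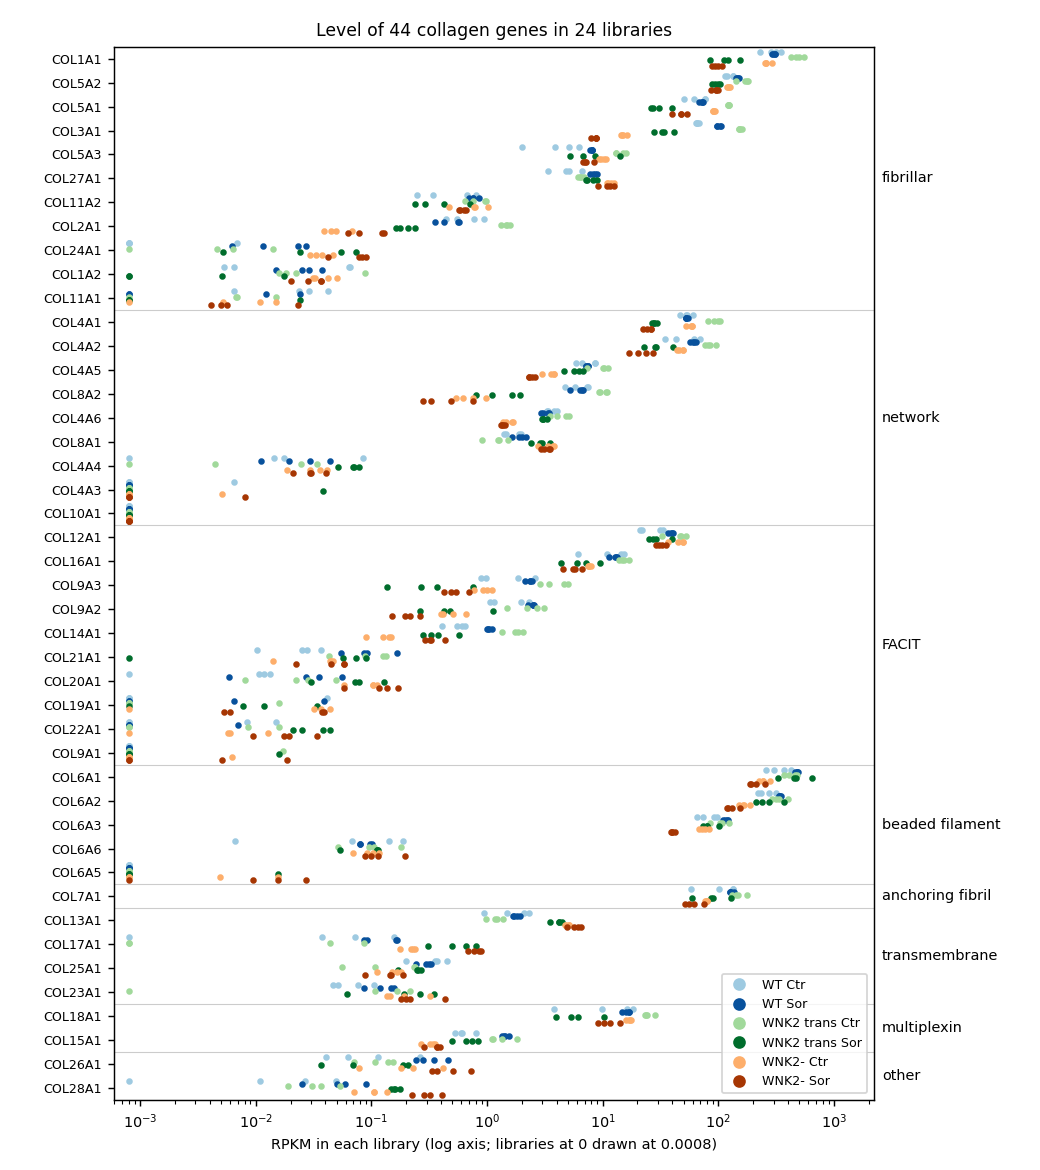
Each point is the level of a collagen gene in 1 library, in RPKM on a log axis, coloured by labelled group, with genes grouped by class; libraries at 0 are drawn at 0.0008. COL6A1, COL1A1, COL6A2 and COL5A2 lie furthest to the right, COL2A1 does not pass 1.59 RPKM in any library, and COL10A1 is at 0 in all 24.

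The labelled cell type was checked with marker genes. Of 10 chondrocyte markers 1 to 3 reached 1 RPKM in a group, and SOX9, the defining chondrocyte factor, was listed at 0. HAPLN1, the cartilage link protein, led that list, whose sum was 10.3 to 22.4 RPKM in the WT and transfected libraries and 3.04 to 3.79 in the WNK2- libraries. The sum mostly reflects HAPLN1 and hides opposite moves of other markers. Between WNK2 trans Ctr and WNK2 trans Sor the mean of HAPLN1 rose from 6.67 to 16.9 RPKM and MATN1 from 0.0434 to 0.118. COL2A1 fell from 1.46 to 0.197 RPKM, ACAN from 0.777 to 0.149, COMP from 0.988 to 0.162 and MATN3 from 1.501 to 0.373. A list of 6 fibroblast markers, led by PDGFRB and with THY1 listed at 0, had a sum that moved with several results below. Its sum was 46.5 to 51.7 RPKM in WNK2 trans Ctr, 30.4 to 33.6 in WT Sor, 17.5 to 24.6 in WT Ctr, 13.4 to 16.9 in WNK2 trans Sor and 14.2 to 17.1 in WNK2- Ctr, while WNK2- Sor held 10.9 to 11.8, with 2 or 3 of its genes at 1 RPKM or more. The genes of this list did not move as one. Between WNK2 trans Ctr and WNK2- Sor the mean of PDGFRB fell from 42.0 to 6.67 RPKM and LUM from 4.72 to 0.041. FAP rose from 1.34 to 4.55 RPKM. The immune list, in which CD14 at most reached 1 RPKM, ran in a like order from 7.01 to 11.8 RPKM in WNK2 trans Ctr to 0.983 to 1.13 in WNK2- Sor. The sum of the endothelial list was highest in WNK2 trans Sor at 15.9 to 19, where CDH5 (8.25 RPKM) and TIE1 (2.55) had their highest means. The other endothelial genes peaked elsewhere. PECAM1 was highest in WT Sor (6.79 RPKM, against 6.49 in WNK2 trans Sor), and VWF (0.179) and KDR (0.403) in WNK2- Sor. The part of these markers in the collagen results was not tested. In bulk RNA, fewer cells of a type and less RNA per cell cannot be told apart.

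Summed over all members, collagen RNA was highest in the libraries labelled WNK2 trans Ctr at 2273 ± 105 RPKM (SD, n = 4) and lowest in WNK2- Sor at 823 ± 87.2. WT Sor held 1910 ± 26.5 RPKM, WT Ctr 1535 ± 254, WNK2 trans Sor 1340 ± 289 and WNK2- Ctr 1276 ± 35.8. The WNK2- Sor libraries, at 732 to 936 RPKM, lay below all others, while WT Ctr, WNK2 trans Sor and WNK2- Ctr overlapped. The make-up shifted too. Fibrillar chains were 42.004% of the sum in WNK2 trans Ctr and 22.3% in WNK2 trans Sor, and beaded filament chains 38.2% and 61.7%. The transmembrane share ran from 0.0664% in WNK2 trans Ctr to 0.85% in WNK2- Sor.

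**Figure D2:**
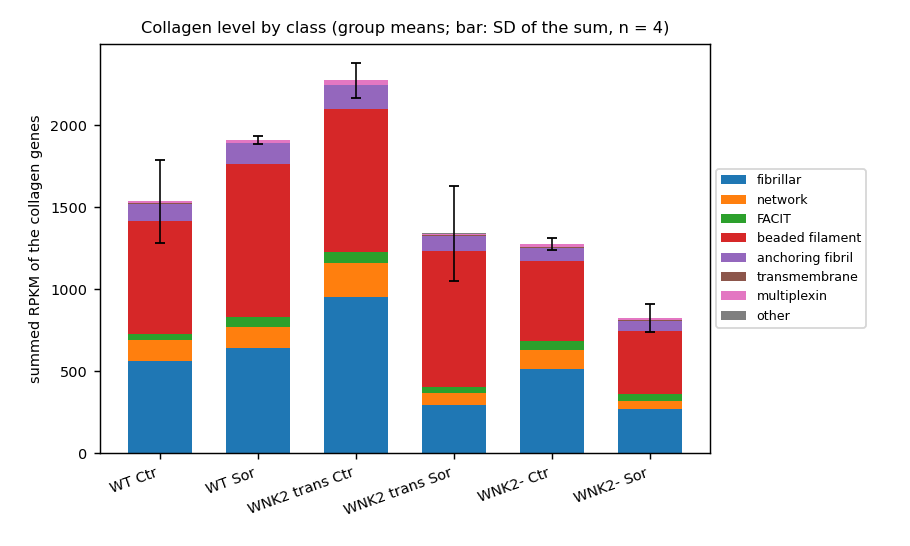
Stacked bars give the mean summed RPKM of each collagen class in the 6 labelled groups, and the black bars the SD of the total (n = 4). Fibrillar and beaded filament chains make up most of each bar, and the total runs from 823 ± 87.2 RPKM in WNK2- Sor to 2273 ± 105 in WNK2 trans Ctr.

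Members called at an adjusted p under 0.05 are set beside the share of all 16600 genes called in the same direction. Between the libraries labelled WNK2- Sor and WT Sor, 7 of the 36 tested members were higher (23.7% of all genes) and 20 lower (22.7% of all genes), with a median log2 difference of −1.07 over the members and 0.02 over all genes. Between WNK2 trans Sor and WT Sor, 4 were higher (16.1% of all genes) and 17 lower (15.5% of all genes), with medians of −0.48 and 0.012. With offsets for GC content and length that split was 10 higher and 17 lower, with 38.3% of all genes called. Between WNK2- Sor and WNK2- Ctr, 3 were higher (8.25% of all genes) and 10 lower (6.64% of all genes), with medians of −0.27 and 0.005. The shares of tested members that fell, at 55.6%, 47.2% and 27.8%, were above those of all genes. Without WT Ctr and WNK2 trans Ctr in the fit these 3 comparisons called 29, 25 and 17 members, while the calls over all genes rose too, from 46.3%, 31.7% and 14.9% to 52.0%, 39.1% and 21.1%.

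The remaining comparisons rest on WT Ctr or WNK2 trans Ctr. WNK2- Ctr against WT Ctr called 11 members higher (20.7% of all genes) and 12 lower (21.5% of all genes), and with WNK2 trans Ctr as the comparator 7 and 19 (47.7% of all genes called). WT Sor against WT Ctr called 11 higher (11.4% of all genes) and 0 lower (12.7% of all genes), but 3 higher and 10 lower against WNK2 trans Ctr (15.1% of all genes called), and 9 higher and 5 lower with offsets for GC content and length (35.2%). The members' median was 0.45 against WT Ctr and −0.16 against WNK2 trans Ctr. WNK2 trans Ctr against WT Ctr called 17 higher (5.57% of all genes) and 1 lower (6.98% of all genes), signs that exchanged labels would turn. WNK2 trans Sor against WNK2 trans Ctr called 7 higher (24.3% of all genes) and 21 lower (23.7% of all genes), against WT Ctr instead 10 and 14 (39.2% of all genes called), and with the offsets 11 and 19 (55.8%). Tested members such as COL20A1, COL21A1, COL24A1 and COL28A1 passed the filter through the groups in which they were high, so these counts describe the members and support no direction.

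**Figure D3:**
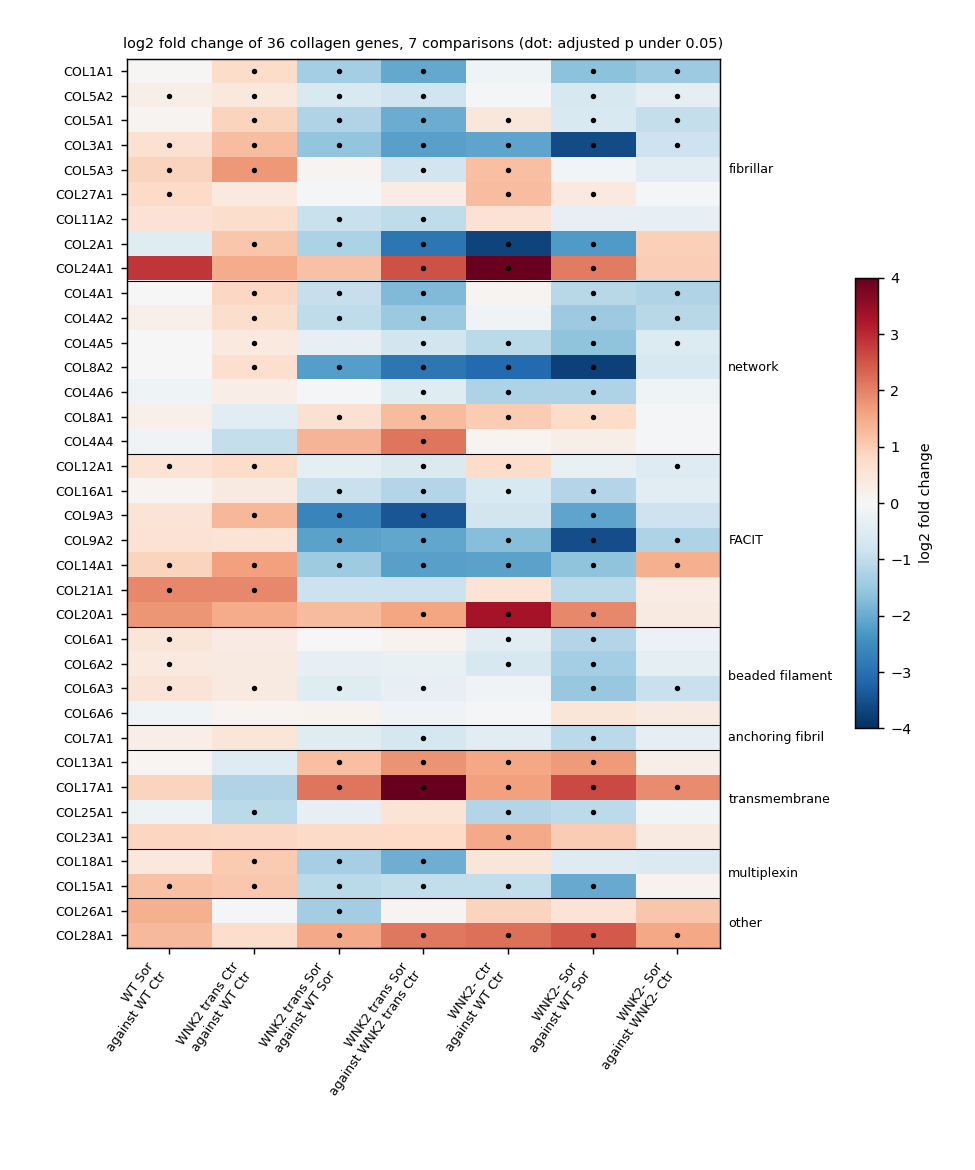
Colour gives the log2 fold change of the 36 tested collagen genes (rows, by class) in the 7 pairwise comparisons of labelled groups (columns), and a dot marks an edgeR adjusted p under 0.05. In the columns of WNK2 trans Sor and WNK2- Sor against WT Sor, 17 and 20 genes are called lower (15.5% and 22.7% of all genes). COL8A1, COL13A1, COL17A1 and COL28A1 are called higher in both columns. COL28A1 passed the filter on low counts through the groups in which it was high. The columns that use WT Ctr change with the comparator.

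Among the cartilage fibril genes, COL2A1 (ENSG00000139219, GRCh38 chr12:47972965-48004554) separated some of the groups in spite of its low level. It read 0.356, 0.566, 0.572 and 0.425 RPKM in WT Sor, 0.177, 0.164, 0.207 and 0.24 in WNK2 trans Sor and 0.0781, 0.123, 0.0631 and 0.13 in WNK2- Sor. In isotonic medium it read 0.936, 0.445, 0.548 and 0.77 RPKM in WT Ctr, 1.31, 1.5, 1.59 and 1.46 in WNK2 trans Ctr and 0.0387, 0.0447, 0.0493 and 0.0681 in WNK2- Ctr. The WNK2- and WNK2 trans Sor libraries all lay below the WT libraries and WNK2 trans Ctr above them, with 5 to 18 reads behind each WNK2- value. WT Sor overlapped WT Ctr, and WNK2- Sor overlapped WNK2- Ctr. The log2 difference from WT Sor was −2.28 (SE 0.26, adjusted p = 8.53e-08) in WNK2- Sor and −1.27 (SE 0.25, adjusted p = 2.98e-04) in WNK2 trans Sor. Sorbitol in the WNK2- cells gave 0.94 (SE 0.34, adjusted p = 0.061), which passed with offsets for GC content and length at 1.04 (adjusted p = 0.0112). WNK2- Ctr differed from WT Ctr by −3.71 (SE 0.29, adjusted p = 1.41e-10) and from WNK2 trans Ctr by −4.83.

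COL9A2 and COL9A3 code chains of type IX collagen, the FACIT bound to type II fibrils. COL9A2 was 2.25 to 2.56 RPKM in WT Sor, 0.261 to 1.12 in WNK2 trans Sor and 0.401 to 0.661 in WNK2- Ctr, while WNK2- Sor held 0.15 to 0.265, and WT Sor lay above these 3 groups. It overlapped WT Ctr at 1.07 to 2.32 RPKM and WNK2 trans Ctr at 1.49 to 3.14. It fell by 3.54 (SE 0.35, adjusted p = 6.44e-09) on the log2 scale between WT Sor and WNK2- Sor and by 2.13 (SE 0.32, adjusted p = 1.34e-05) between WT Sor and WNK2 trans Sor. COL9A3 was 2.12 to 2.43 RPKM in WT Sor and 0.135 to 0.758 in WNK2 trans Sor, the largest fall of a member between these groups at −2.63 (SE 0.35, adjusted p = 2.34e-06). It differed by −2.10 (SE 0.33, adjusted p = 8.45e-06) between WNK2- Sor and WT Sor, and its highest libraries were those of WNK2 trans Ctr at 2.87 to 4.98 RPKM. COL11A2, a chain of type XI collagen, was 0.697 to 0.853 RPKM in WT Sor and 0.237 to 0.719 in WNK2 trans Sor, which overlapped. Its difference of −0.88 (SE 0.31, adjusted p = 0.0329) did not pass with offsets for GC content and length (−0.37) or without any 1 of 6 libraries (WT Sor replicates 1, 2 and 4 and WNK2 trans Sor replicates 2, 3 and 4).

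**Figure D4:**
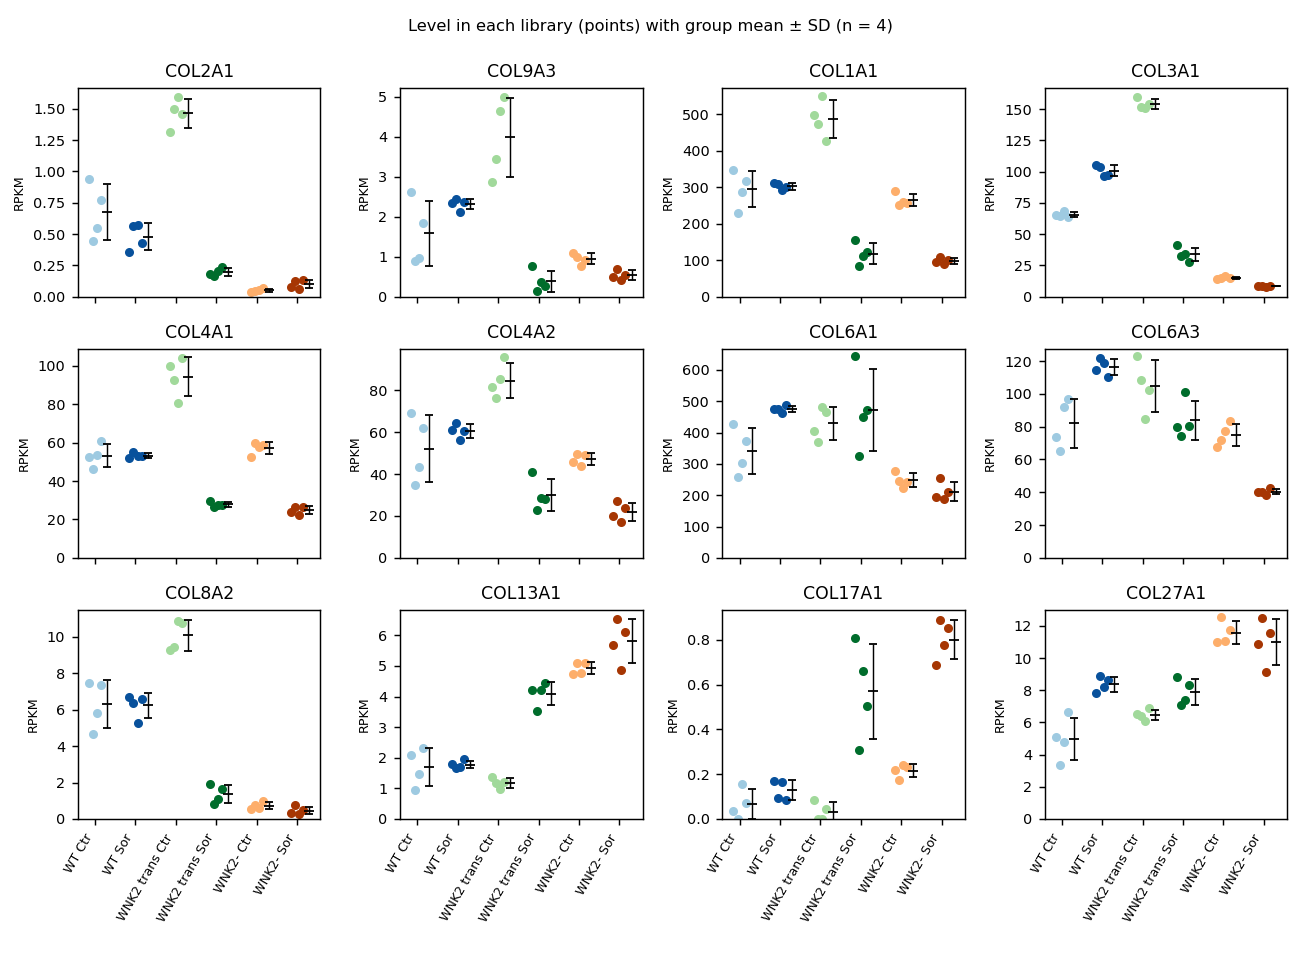
Points are the RPKM of 12 collagen genes in each library, by labelled group, and bars the group mean ± SD (n = 4); each panel has its own axis. COL2A1, COL9A3, COL1A1, COL3A1, COL4A1, COL4A2 and COL8A2 have their highest mean in the libraries labelled WNK2 trans Ctr, and COL13A1 and COL17A1 in WNK2- Sor.

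COL1A1 (ENSG00000108821, chr17:50183289-50201632), the main chain of type I collagen, fell with sorbitol in the WNK2- cells. It read 289, 252, 260.2 and 256 RPKM in WNK2- Ctr and 93.99, 108, 88.6 and 99.7 in WNK2- Sor, with no overlap and a log2 difference of −1.44 (SE 0.13, adjusted p = 1.96e-08). That was the largest fall in the comparison among members whose mean log2 CPM was 1 or more. It read 310.4, 309.7, 291 and 299 RPKM in WT Sor and 154, 85.2, 112 and 121 in WNK2 trans Sor (log2 −1.36, SE 0.13, adjusted p = 2.42e-08), again without overlap. WT Ctr, at 229 to 348 RPKM, overlapped WT Sor (log2 0.037). With offsets for GC content and length that difference was −0.29 (adjusted p = 0.00329), and against WNK2 trans Ctr, at 426 to 549 RPKM, it was −0.69 (adjusted p = 5.88e-04).

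COL3A1 (ENSG00000168542, chr2:188974320-189012746), the chain of type III collagen, gave 6 groups that did not overlap. Its level was 151 to 159.6 RPKM in WNK2 trans Ctr, 96.97 to 106 in WT Sor, 63.9 to 68.3 in WT Ctr, 27.9 to 41.1 in WNK2 trans Sor and 14.4 to 16.3 in WNK2- Ctr, while WNK2- Sor held 7.99 to 8.72. The log2 difference from WT Sor was −3.57 (SE 0.09, adjusted p = 7.57e-20) in WNK2- Sor and −1.57 (SE 0.09, adjusted p = 1.15e-12) in WNK2 trans Sor, and sorbitol in the WNK2- cells gave −0.82 (SE 0.09, adjusted p = 1.30e-07). WT Sor was higher than WT Ctr by 0.62 (SE 0.08, adjusted p = 8.78e-06) but differed from WNK2 trans Ctr by −0.61 (adjusted p = 1.09e-05). The ratio of COL1A1 to COL3A1 was 2.61 to 5.32 in the WT and transfected libraries and 10.8 to 20.003 in the WNK2- libraries.

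COL5A2 (chr2:189031896-189225312), a type V chain coded beside COL3A1, moved less than its neighbour. It was 143 to 151 RPKM in WT Sor, 87.8 to 104 in WNK2 trans Sor and 87.2 to 98.4 in WNK2- Sor, with log2 differences from WT Sor of −0.61 (SE 0.08, adjusted p = 1.76e-06) and −0.63 (SE 0.08, adjusted p = 3.39e-07). COL5A1, the other main type V chain, was 68.6 to 73.2 RPKM in WT Sor, 26.003 to 39.4 in WNK2 trans Sor and 39.6 to 53.9 in WNK2- Sor, with log2 differences of −1.21 and −0.60. With sorbitol in the WNK2- cells COL5A2 fell by 0.38 (SE 0.08, adjusted p = 0.00144) and COL5A1 by 0.96 (SE 0.12, adjusted p = 3.04e-06). In isotonic medium COL5A1 in WNK2- Ctr differed from WT Ctr by 0.47 (SE 0.12, adjusted p = 0.00321) and from WNK2 trans Ctr by −0.41 (adjusted p = 0.00717). COL5A3, a minor type V chain, showed the largest rise of WNK2 trans Ctr over WT Ctr among members whose mean log2 CPM was 1 or more, 1.72 (SE 0.24, adjusted p = 1.67e-05). Below that limit COL21A1 gave 1.93 on 20 reads or fewer. COL21A1 passed the filter on low counts through groups in which it was high, so its difference supports no direction.

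COL27A1, a fibrillar collagen of developing cartilage, was highest in the WNK2- clone. It was 11.003 to 12.5 RPKM in WNK2- Ctr, 9.12 to 12.5 in WNK2- Sor, 7.81 to 8.86 in WT Sor, 7.11 to 8.85 in WNK2 trans Sor and 6.09 to 6.88 in WNK2 trans Ctr, while WT Ctr held 3.38 to 6.63. WNK2- Ctr differed from WT Ctr by 1.22 (SE 0.13, adjusted p = 5.64e-08) and from WNK2 trans Ctr by 0.84. WNK2- Sor differed from WT Sor by 0.39 (SE 0.13, adjusted p = 0.0155), a call lost without WNK2- Sor replicate 2. WNK2 trans Sor did not separate from WT Sor (−0.082), but with offsets for GC content and length it was higher by 0.32 (adjusted p = 7.44e-04).

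Of the network collagens, COL4A1 and COL4A2, the main chains of type IV, the scaffold of basement membranes, fell together. COL4A1 (ENSG00000187498, chr13:110148963-110307233) and COL4A2 (ENSG00000134871, chr13:110305812-110513209) are read in opposite directions from RefSeq starts at 110307157 and 110307284, with 126 bases between. COL4A1 was 52.1 to 54.9 RPKM in WT Sor, 26.7 to 29.5 in WNK2 trans Sor and 52.6 to 59.7 in WNK2- Ctr, while WNK2- Sor held 22.3 to 26.4. COL4A2 was 56.4 to 64.4 RPKM in WT Sor, 22.7 to 40.9 in WNK2 trans Sor and 43.8 to 49.6 in WNK2- Ctr, while WNK2- Sor held 16.9 to 27.05. With sorbitol in the WNK2- cells COL4A1 fell by 1.21 (SE 0.09, adjusted p = 2.89e-10) and COL4A2 by 1.10 (SE 0.18, adjusted p = 7.66e-05) on the log2 scale, without overlap. From WT Sor to WNK2 trans Sor they fell by 0.93 (SE 0.09, adjusted p = 1.10e-08) and 1.01 (SE 0.18, adjusted p = 9.32e-05). The ratio of COL4A1 to COL4A2 was 0.720 to 1.34 over all libraries. WT Sor and WT Ctr overlapped for both (log2 0.0005 and 0.22), but for COL4A1 the difference was −0.27 (adjusted p = 5.15e-04) with offsets for GC content and length and −0.83 (adjusted p = 1.90e-07) against WNK2 trans Ctr.

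COL4A5 and COL4A6, another head-to-head pair of type IV chains, on the X chromosome, were lower in the WNK2- clone in both media. Between WNK2- Sor and WT Sor COL4A5 differed by −1.60 (SE 0.13, adjusted p = 4.06e-10) and COL4A6 by −1.23 (SE 0.11, adjusted p = 1.00e-09). Between WNK2- Ctr and WT Ctr they differed by −1.07 and −1.24, and against WNK2 trans Ctr by −1.46 and −1.51. With sorbitol in the WNK2- cells COL4A5 fell by 0.55 (SE 0.13, adjusted p = 0.00523) while COL4A6 gave −0.16, which did not pass, and neither passed between WNK2 trans Sor and WT Sor (−0.33 and −0.048). COL4A4 had 14 reads or fewer in each library and COL4A3 at most 6.

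Type VIII collagen forms networks from the products of COL8A1 and COL8A2, and these genes moved apart. COL8A2 (ENSG00000171812, chr1:36095236-36125220) read 6.7, 6.38, 5.25 and 6.6 RPKM in WT Sor, 1.92, 0.796, 1.1 and 1.66 in WNK2 trans Sor and 0.326, 0.758, 0.282 and 0.491 in WNK2- Sor, without overlap. It showed the largest fall of a member between WNK2- Sor and WT Sor at −3.74 (SE 0.26, adjusted p = 1.54e-11), and −2.19 (SE 0.24, adjusted p = 1.47e-07) for WNK2 trans Sor. WNK2- Ctr, at 0.541 to 0.981 RPKM, overlapped WNK2- Sor and lay below WT Ctr at 4.68 to 7.45 (log2 −3.12, SE 0.25, adjusted p = 3.48e-10). COL8A1 was higher than in WT Sor by 0.61 (SE 0.15, adjusted p = 0.0027) in WNK2 trans Sor and 0.75 (SE 0.15, adjusted p = 1.68e-04) in WNK2- Sor.

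The main chains of type VI collagen, COL6A1 (ENSG00000142156, chr21:45981737-46005050), COL6A2 (ENSG00000142173, chr21:46098097-46132849) and COL6A3, were lower in WNK2- Sor than in WT Sor. COL6A1 read 476, 475, 462 and 488 RPKM in WT Sor and 193, 255, 187 and 211 in WNK2- Sor, with no overlap (log2 −1.17, SE 0.16, adjusted p = 1.03e-06). COL6A2 fell by 1.37 (SE 0.14, adjusted p = 1.24e-08) and COL6A3 by 1.53 (SE 0.12, adjusted p = 1.09e-10) in the same comparison. With sorbitol in the WNK2- cells COL6A3 fell from a range of 67.5 to 83.2 RPKM to one of 38.6 to 42.5 (log2 −0.90, SE 0.12, adjusted p = 5.64e-06), while COL6A1 gave −0.23 and COL6A2 −0.35, which did not pass. COL6A1 read 644, 326, 451 and 471 RPKM in WNK2 trans Sor and overlapped WT Sor (log2 −0.0072). With offsets for GC content and length, however, COL6A1 and COL6A2 were higher in WNK2 trans Sor than in WT Sor, by 0.54 (adjusted p = 2.31e-08) and 0.45 (adjusted p = 0.00271), where COL6A2 was −0.32 without them.

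All 3 type VI chains were called higher in WT Sor than in WT Ctr (log2 0.48 for COL6A1, 0.38 for COL6A2 and 0.50 for COL6A3), and none passed against WNK2 trans Ctr (0.14, 0.021 and 0.15). COL6A2 turned to −0.058 with the offsets and lost its call in 14 of the 24 fits without 1 library. COL6A1 lost it without WT Ctr replicate 2 or 3 or WT Sor replicate 4. COL6A6 did not pass in any comparison, and COL6A5 had at most 5 reads.

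Among the other FACITs, COL16A1 differed from WT Sor by −0.90 (SE 0.20, adjusted p = 0.00131) in WNK2 trans Sor and −1.18 (SE 0.20, adjusted p = 3.38e-05) in WNK2- Sor. COL14A1, a FACIT of fibrous tissue, was 0.994 to 1.1 RPKM in WT Sor, 0.278 to 0.569 in WNK2 trans Sor and 0.0895 to 0.147 in WNK2- Ctr, while WNK2- Sor held 0.289 to 0.436. It was 1 of the 3 members that rose with sorbitol in the WNK2- cells (log2 1.43, SE 0.23, adjusted p = 6.62e-05), although WNK2- Sor lay below WT Sor (−1.59). COL12A1, the most abundant FACIT, was 36.8 to 40.3 RPKM in WT Sor and 29.002 to 35.02 in WNK2- Sor, without passing (log2 −0.29, SE 0.16, adjusted p = 0.139). It differed by 0.75 between WNK2- Ctr and WT Ctr but by 0.013 between WNK2- Ctr and WNK2 trans Ctr. COL20A1 had 41 reads or fewer in each library and COL21A1 20 or fewer. COL7A1, the anchoring fibril chain, was 126 to 136 RPKM in WT Sor and 51.4 to 75.4 in WNK2- Sor (log2 −1.08, SE 0.20, adjusted p = 8.25e-05).

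Of the 4 transmembrane collagens, COL13A1 and COL17A1 rose. COL13A1 (ENSG00000197467, chr10:69801867-69964275), found at cell adhesions, read 1.8, 1.67, 1.7 and 1.95 RPKM in WT Sor, 4.23, 3.54, 4.2 and 4.43 in WNK2 trans Sor and 5.68, 6.55, 4.88 and 6.12 in WNK2- Sor, without overlap. Its log2 difference from WT Sor was 1.20 (SE 0.17, adjusted p = 6.61e-06) in WNK2 trans Sor and 1.71 (SE 0.17, adjusted p = 8.86e-09) in WNK2- Sor. WNK2- Ctr, at 4.73 to 5.09 RPKM, overlapped WNK2- Sor. COL17A1 (ENSG00000065618, chr10:104031286-104085957), the hemidesmosome collagen of epithelium, held 10 to 21 reads a library in WT Sor, 40 to 87 in WNK2 trans Sor and 25 to 36 in WNK2- Ctr, while WNK2- Sor held 104 to 138. In WT Ctr it held 0 to 19 reads and in WNK2 trans Ctr 0 to 9. Its difference was 2.14 (SE 0.49, adjusted p = 0.00153) for WNK2 trans Sor and 2.63 (SE 0.48, adjusted p = 6.91e-05) for WNK2- Sor against WT Sor, and 1.88 (SE 0.44, adjusted p = 0.00419) for sorbitol in the WNK2- cells, in each the largest rise among members whose mean log2 CPM was 1 or more. Of the 5 epithelial markers, KRT8 and KRT18 passed 1 RPKM in all groups, with list sums of 161 to 175 RPKM in WT Sor and 164 to 201 in WNK2- Sor, which overlapped. COL25A1 was lower in WNK2- Sor than in WT Sor (log2 −1.06, SE 0.33, adjusted p = 0.00955), and COL23A1 gave 1.00 (SE 0.54, adjusted p = 0.135). In the remaining class COL28A1 gave 2.46 (SE 0.41, adjusted p = 2.23e-05) between WNK2- Sor and WT Sor at 53 reads or fewer in each library, and COL26A1 gave 0.55 (SE 0.46, adjusted p = 0.349). COL28A1 passed the filter on low counts through the groups in which it was high, so its difference supports no direction.

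Of the multiplexins, COL15A1 fell by 2.01 (SE 0.18, adjusted p = 1.51e-09) between WT Sor and WNK2- Sor and by 1.07 (SE 0.18, adjusted p = 4.66e-05) between WT Sor and WNK2 trans Sor. Among members whose mean log2 CPM was 1 or more it showed the largest rise of WT Sor over WT Ctr, 1.18 (SE 0.18, adjusted p = 3.62e-05), which was 0.097 against WNK2 trans Ctr. COL18A1, the source of endostatin, fell by 1.33 (SE 0.30, adjusted p = 0.00124) between WT Sor and WNK2 trans Sor. It shares 16.4% of its exon bases with SLC19A1, so its value is uncertain where strand was not used in counting.

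Promoter windows were read from RefSeq for the 32 of 44 members that had an entry, and 4 are shown because these genes moved in different ways. The bases before the RefSeq start that lie in no GENCODE exon are given 5′ to 3′ on the strand of the gene (GRCh38), and capitals mark, on either strand, the letters TATAAA of the TATA box, the letters CCAAT of the box of that name, or the letters GGGCGG of the GC box. They cover chr21:46097862-46098096 (plus strand) for COL6A2, chr1:36125223-36125472 (minus) for COL8A2, chr10:69801656-69801866 (plus) for COL13A1 and chr10:104085958-104086130 (minus) for COL17A1.
COL6A2: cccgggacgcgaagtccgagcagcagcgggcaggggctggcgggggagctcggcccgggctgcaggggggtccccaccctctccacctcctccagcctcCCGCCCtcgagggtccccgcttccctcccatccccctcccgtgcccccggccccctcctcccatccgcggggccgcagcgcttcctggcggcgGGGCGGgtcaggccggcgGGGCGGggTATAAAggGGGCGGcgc
COL8A2: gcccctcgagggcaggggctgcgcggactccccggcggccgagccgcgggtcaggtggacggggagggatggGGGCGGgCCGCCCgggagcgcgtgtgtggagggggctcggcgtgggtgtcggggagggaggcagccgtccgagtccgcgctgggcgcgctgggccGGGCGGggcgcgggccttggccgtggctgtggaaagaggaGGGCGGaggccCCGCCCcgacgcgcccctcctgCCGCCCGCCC
COL13A1: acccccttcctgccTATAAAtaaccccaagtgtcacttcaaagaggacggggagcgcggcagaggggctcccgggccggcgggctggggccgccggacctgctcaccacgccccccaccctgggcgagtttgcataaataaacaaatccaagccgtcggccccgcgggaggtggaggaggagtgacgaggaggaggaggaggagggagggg
COL17A1: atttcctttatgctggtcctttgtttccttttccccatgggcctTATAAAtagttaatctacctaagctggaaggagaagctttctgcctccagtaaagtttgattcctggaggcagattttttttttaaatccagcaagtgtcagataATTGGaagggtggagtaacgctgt
COL6A2 has TATAAA 32 bases before the start and GGGCGG on both sides of it. COL8A2 has GGGCGG on 1 strand or the other 7 times and neither other motif, with the last copies overlapping. COL13A1 and COL17A1 have TATAAA 236 and 206 bases before the start and no GGGCGG, and COL17A1 has CCAAT on the other strand. In the 250 bases before the first listed start of each gene, TATAAA stood in 5 of the 32 members (15.6%) and in 11.1% of all 27305 genes, CCAAT in 9 (28.1%) and 33.0%, and GGGCGG in 18 (56.2%) and 42.3%. These matches describe letters only.

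Genes around the members were read in the same comparison. Over the 36 tested members, the median log2 difference between WNK2- Sor and WT Sor of the other tested genes within 2 Mb ran from −0.41 for COL11A2 (93 genes) to 0.37 for COL25A1 (20 genes). For 5 members described above it was 0.05 for COL3A1 (23 genes), 0.021 for COL8A2 (46 genes), 0.096 for COL6A2 (38 genes), −0.051 for COL1A1 (60 genes) and −0.012 for COL17A1 (40 genes).

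Whether the effect of sorbitol differed between cell backgrounds was tested as an interaction. For WNK2- against untransfected cells 1 member was higher (3.99% of all genes) and 14 lower (4.66% of all genes), with a median of −0.72 over the members and −0.009 over all genes. Among the lower were COL1A1 (−1.48, SE 0.19), COL3A1 (−1.44, SE 0.12), COL4A1 (−1.21, SE 0.12), COL4A2 (−1.32, SE 0.25) and COL6A3 (−1.40, SE 0.17). COL2A1 was the higher one at 1.43 (SE 0.40, adjusted p = 0.0275), a call lost without any 1 of 7 libraries (WT Sor replicates 1 and 4, WNK2- Ctr replicates 1, 2 and 3 and WNK2- Sor replicates 2 and 4). For transfected against untransfected cells 3 members were higher (18.1% of all genes) and 22 lower (17.4% of all genes), among them COL9A3 (−3.96, SE 0.46) and COL14A1 (−3.06, SE 0.28), with COL17A1 (3.33, SE 0.91) and COL13A1 (1.72, SE 0.25) the other way; COL17A1 lost this call without WT Ctr replicate 3. These tests use WT Ctr and WT Sor, and that for transfection WNK2 trans Ctr too, whose labels the WNK2 counts put in doubt. With WT Ctr and WNK2 trans Ctr exchanged, 4 members passed in each, in place of 15 and 25, while the share of all genes called went from 8.65% to 3.39% and from 35.5% to 5.46%. For the deletion these were COL2A1 (2.55) and COL14A1 (2.19) higher and COL1A1 (−0.75) and COL6A3 (−1.05) lower. For the transfection they were COL5A3 (1.83) higher and COL1A1 (−0.64), COL8A2 (−1.52) and COL9A2 (−1.58) lower.

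**Figure D5:**
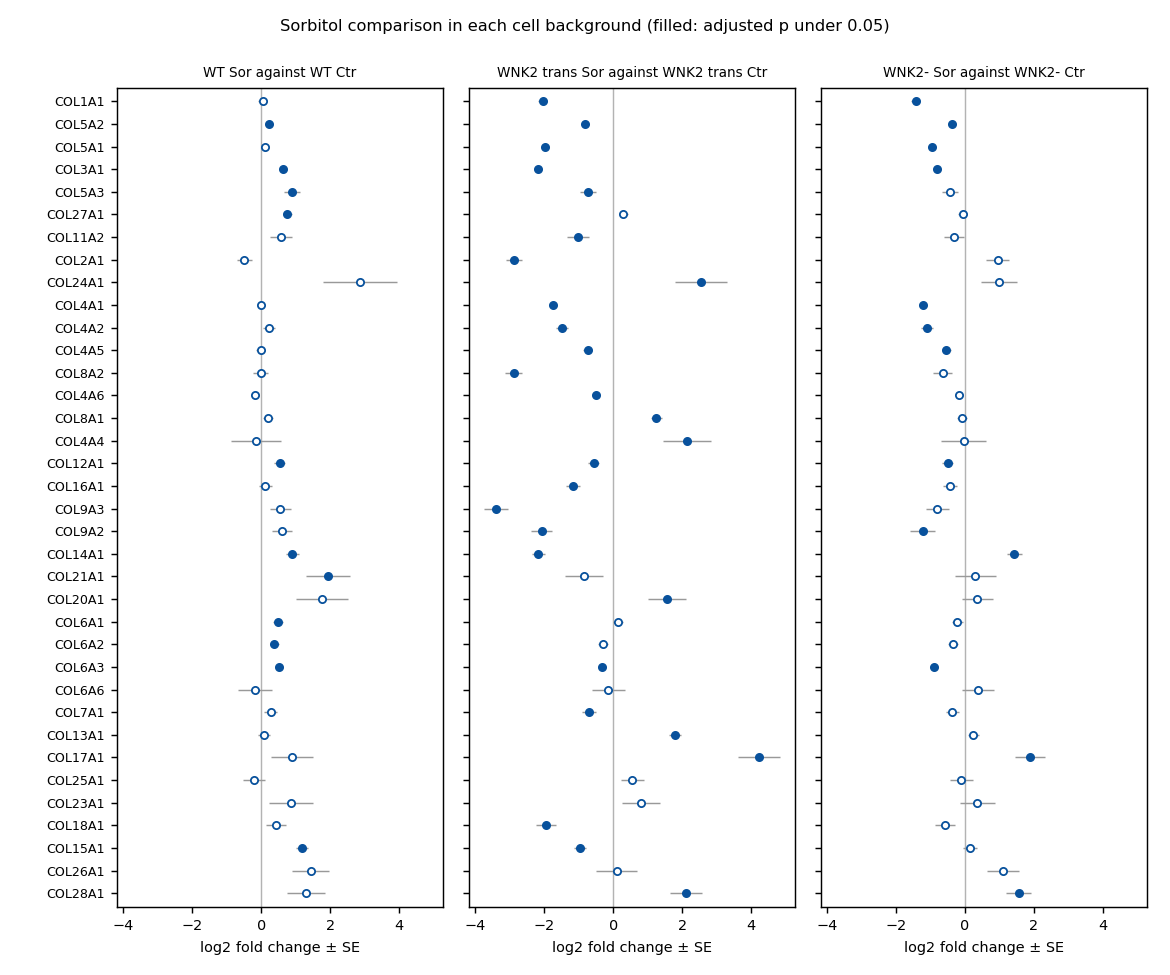
Points give the log2 fold change of sorbitol against isotonic libraries (± SE) for the 36 tested collagen genes in the untransfected, transfected and WNK2- cells as labelled, filled where the edgeR adjusted p is under 0.05. In the WNK2- cells 10 genes are lower (6.64% of all genes) and 3 higher (8.25%). In the transfected cells 21 are lower (23.7% of all genes) and 7 higher (24.3%). In the untransfected cells 11 are higher (11.4% of all genes) and 0 lower (12.7%). With WNK2 trans Ctr as the comparator the last would be 3 higher and 10 lower (15.1% of all genes called).

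Collagen chains are hydroxylated, glycosylated, folded, exported, trimmed and cross-linked by dedicated proteins, and 39 of a list of 41 such genes were tested. Between WNK2- Sor and WT Sor 9 were higher and 19 lower (median log2 difference −0.32), where 23.7% and 22.7% of all genes were called, so that the share higher was near that of all genes. Between WNK2 trans Sor and WT Sor 2 were higher and 15 lower (median log2 difference −0.22), beside 16.1% and 15.5% of all genes. Between WNK2- Sor and WNK2- Ctr 2 were higher and 10 lower (median log2 difference −0.23), beside 8.25% and 6.64%. By step, between WNK2- Sor and WT Sor, 7 of 10 genes of prolyl hydroxylation, which stabilises the helix, were lower and 1 higher. Of lysyl hydroxylation and glycosylation 3 of 7 were lower and 3 higher, and of chaperones, export and transcription 2 of 9 each way. Of processing 4 of 8 were lower and 1 higher, and of cross-linking 3 of 5 were lower and 2 higher. ADAMTS3, which trims the amino end of type II procollagen, fell by 4.44 (SE 0.28, adjusted p = 1.89e-12) and P3H4, a partner of prolyl 3-hydroxylase, by 1.85 (SE 0.13, adjusted p = 8.87e-12) between WT Sor and WNK2- Sor. PCOLCE, the enhancer of carboxy-terminal trimming, fell by 1.48 (SE 0.29, adjusted p = 4.07e-04) and TLL2, a tolloid-like proteinase, rose by 1.29 (SE 0.46, adjusted p = 0.033) between WT Sor and WNK2 trans Sor. With sorbitol in the WNK2- cells SERPINH1, the collagen chaperone HSP47, fell by 1.05 (SE 0.10, adjusted p = 5.50e-08) and the glycosyltransferase gene COLGALT2 rose by 1.13 (SE 0.25, adjusted p = 0.00227).

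The other comparisons of these genes use WT Ctr or WNK2 trans Ctr. Between WNK2- Ctr and WT Ctr 10 were higher and 7 lower (median log2 difference −0.048), near the 20.7% and 21.5% of all genes. ADAMTS3 (−3.98, SE 0.29) and the lysyl oxidase LOXL4 (1.496, SE 0.33) were in front. Against WNK2 trans Ctr 10 were higher and 18 lower, where 47.7% of all genes were called. Between WT Sor and WT Ctr 5 were higher and 4 lower (median log2 difference −0.037), near the 11.4% and 12.7% of all genes. LOX, which cross-links fibrils, was at 0.98 (SE 0.35, adjusted p = 0.0461) and the prolyl hydroxylase P4HA3 at 0.80 (SE 0.21, adjusted p = 0.00659). With WNK2 trans Ctr as the comparator 3 were higher and 9 lower, where 15.1% of all genes were called. Between WNK2 trans Ctr and WT Ctr 5 were higher and 0 lower (median log2 difference 0.13), beside 5.57% and 6.98% of all genes, with the procollagen proteinases ADAMTS2 (1.74, SE 0.24) and ADAMTS14 (1.09, SE 0.23). Between WNK2 trans Sor and WNK2 trans Ctr 4 were higher and 21 lower (median log2 difference −0.36), beside 24.3% and 23.7% of all genes, with ADAMTS2 (−2.70, SE 0.26) and PCOLCE (−1.84, SE 0.29). Against WT Ctr 4 were higher and 17 lower, where 39.2% of all genes were called.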

How the data were processed

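The authors aligned poly(A) RNA-seq reads to GRCh38 and counted them per Ensembl gene (HISAT2 2.2.1 and HTSeq 2.0.2 in the submitters' processing notes); the deposited values are whole read counts without normalisation. The annotation release and strand setting of the counting are not given in the sources used here. Symbols, exon lengths and positions came from GENCODE 29. Levels are RPKM over exon length and TMM-scaled library size. Differences were tested with edgeR 4.0.16 (quasi-likelihood, R 4.3.3) in 1 fit of 6 group means over 24 libraries, after a filter on low counts (minimum 10, total 15), with Benjamini-Hochberg adjustment over 16600 genes and a threshold of 0.05. The standard error is the log2 fold change over the root of F. Scripts were tested on simulated data.

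The members and gene lists were chosen with earlier results of these data known. Genes were named by their role in cartilage, fibrous, basement membrane, pericellular and membrane collagens. To these came the called member with the largest rise and fall in each pairwise comparison (mean log2 CPM of at least 1) and the 2 called biosynthesis genes of largest change; further members were named after their values were seen. Alternatives were RLE size factors, DESeq2 1.42.0, no filter, only the groups compared, thinning to the smallest total, GC content and length offsets, a replicate block, leaving out each library, CPM of the library total for the levels, and, because of the WNK2 counts, the other isotonic comparator; the exchange of both isotonic groups was added after the data were seen. Replicates were not duplicates: chi-square per degree of freedom was 2.3 to 67.9 over 36 pairs.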

Additional observations from a re-analysis of the deposited data

Results flagged for a closer look

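The effect of sorbitol differed between WNK2- and untransfected cells for 15 members named in the text, where 8.65% of all genes were called. This used the interaction term of edgeR's quasi-likelihood test. The log2 differences of the effects (WNK2- minus untransfected) were COL2A1 1.43, COL9A2 −1.83, COL1A1 −1.48, COL3A1 −1.44, COL5A1 −1.07, COL5A2 −0.60, COL27A1 −0.83, COL4A1 −1.21, COL4A2 −1.32, COL6A1 −0.71, COL6A2 −0.73, COL6A3 −1.40, COL12A1 −1.04, COL15A1 −1.04 and COL5A3 −1.33. These rest on the labels of WT Ctr and WT Sor, which the WNK2 counts put in doubt. With WT Ctr and WNK2 trans Ctr exchanged 4 members passed (3.39% of all genes called). COL6A1 lost its call in 16 of the 24 fits without 1 library, and COL6A2 without WNK2- Sor replicate 3.

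The effect of sorbitol also differed between transfected and untransfected cells for 25 members, where 35.5% of all genes were called. COL21A1 was called lower on 20 reads or fewer in each library, after passing the filter through groups in which it was high. COL21A1 is left out of the values that follow. The log2 differences of the effects (transfected minus untransfected) were COL2A1 −2.39, COL9A2 −2.67, COL9A3 −3.96, COL11A2 −1.59, COL1A1 −2.08, COL3A1 −2.81, COL5A1 −2.09, COL5A2 −1.03, COL4A1 −1.76, COL4A2 −1.71, COL4A5 −0.73, COL8A1 1.05, COL7A1 −0.98, COL6A2 −0.68, COL6A3 −0.83, COL12A1 −1.10, COL14A1 −3.06, COL16A1 −1.28, COL13A1 1.72, COL17A1 3.33, COL15A1 −2.15, COL18A1 −2.37, COL5A3 −1.61 and COL8A2 −2.86. With the isotonic groups exchanged 4 members passed (5.46% of all genes called).

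In 7 of 192 groups of 4 libraries checked, 1 library stood apart from the other three by Dixon's test, and chance gives about 1 in 20. COL9A1 was high at 0.0173 RPKM in WNK2 trans Ctr replicate 4, 0.0159 in WNK2 trans Sor replicate 3 and 0.00627 in WNK2- Ctr replicate 4. COL11A1 was high at 0.0241 RPKM in WNK2 trans Sor replicate 2 and 0.0231 in WNK2- Sor replicate 3, and COL1A2 at 0.0878 in WNK2 trans Ctr replicate 3, all on 16 reads or fewer. COL3A1 was low at 7.99 RPKM in WNK2- Sor replicate 3, against 8.68 to 8.72 in the other libraries of its group.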

How the results depend on the processing

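Of 164 called results of the 32 named genes, 137 kept their call and direction under every alternative that left the groups as labelled. Counts of members called moved by over 1.5 times with only the groups compared in the fit (11 for WNK2 trans Ctr against WT Ctr, 20 for WNK2- Sor against WNK2- Ctr), with GC content and length offsets (20 for WNK2- Sor against WNK2- Ctr) and with the isotonic groups exchanged (4 in each interaction). Calls over all genes moved the same way: from 12.5% to 5.22%, from 14.9% to 30.9%, from 14.9% to 25.2%, and in the interactions from 8.65% to 3.39% and from 35.5% to 5.46%. Leaving out 1 library gave 8 to 14 members called for WT Sor against WT Ctr, 12 to 21 for WNK2 trans Ctr against WT Ctr, 19 to 24 for WNK2 trans Sor against WT Sor, 26 to 30 for WNK2 trans Sor against WNK2 trans Ctr, 20 to 24 for WNK2- Ctr against WT Ctr, 26 to 28 for WNK2- Sor against WT Sor, 11 to 16 for WNK2- Sor against WNK2- Ctr, and 13 to 17 and 24 to 28 for the genotype and transfection interactions. The calls over all genes also moved with the library left out. For WT Sor against WT Ctr they were 4213 of 16958 genes without WT Ctr replicate 1 and 2761 of 16925 without WT Ctr replicate 2. For WNK2 trans Ctr against WT Ctr they were 2684 and 1520 genes in the same fits. Whether the members moved more than all genes was not tested. Leaving out 1 library turned no sign, and 22 called results of named genes lost their call without some library.

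Signs are listed for results of the 32 named genes called in at least 1 of the fits compared. Others turned without a call in either, such as COL9A3 (WT Sor against WT Ctr, −0.78 against WNK2 trans Ctr). COL21A1, not among the 32, was called lower in the transfection by sorbitol interaction. It turned to 1.08 with WT Ctr and WNK2 trans Ctr exchanged. With offsets for GC content and length, the sign turned for COL1A1 −0.29, COL5A1 −0.21, COL4A1 −0.27, COL6A2 −0.058 (WT Sor against WT Ctr), COL27A1 0.32, COL6A1 0.54, COL6A2 0.45 (WNK2 trans Sor against WT Sor), COL6A1 0.50, COL6A2 0.56 (transfection by sorbitol interaction), COL6A2 0.50 (WNK2 trans Sor against WNK2 trans Ctr), COL5A3 0.28 (WNK2- Sor against WT Sor). With WNK2 trans Ctr in place of WT Ctr, the sign turned for COL1A1 −0.69, COL3A1 −0.61, COL5A1 −0.77, COL5A2 −0.19, COL4A1 −0.83, COL12A1 −0.20, COL14A1 −0.75, COL5A3 −0.83 (WT Sor against WT Ctr), COL5A1 −0.41, COL4A1 −0.72, COL5A3 −0.51 (WNK2- Ctr against WT Ctr). With WT Ctr and WNK2 trans Ctr exchanged, the sign turned for COL4A5 0.067, COL6A2 0.043, COL12A1 0.37, COL14A1 0.23, COL15A1 0.018, COL5A3 1.83 (transfection by sorbitol interaction), COL6A3 0.031, COL12A1 0.17, COL15A1 0.12, COL5A3 1.00 (WNK2 trans Sor against WNK2 trans Ctr), COL15A1 0.045, COL5A3 0.39 (genotype by sorbitol interaction). The cause of the turns was not tested.

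The replicate block gave 11, 16, 21, 28, 22, 27 and 13 members called in the 7 pairwise comparisons in the same order, and 15 and 26 in the interactions. Of all genes it called 23.5%, 12.1%, 31.1%, 47.5%, 41.3%, 45.6% and 14.2%, and 7.97% and 34.9% in the interactions. Whether the numbers pair some of the libraries was not settled. Over 60 pairs with the same number the correlation of deviations was −0.71 to 0.85 (median 0.069), with 26 pairs over 0.1. Of 24 libraries 10 correlated best with their own number. Members with few reads limit the rest, since the 8 untested genes had 16 reads or fewer in each library.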
